A study of Arabidopsis thaliana with 44 samples.

Results

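Rubisco and the Calvin cycle were followed through 10 nuclear genes of Arabidopsis thaliana, chosen by the identity of the gene. They were RBCS1A (AT1G67090), RBCS1B (AT5G38430), RBCS2B (AT5G38420), RBCS3B (AT5G38410), RCA (AT2G39730), PRK (AT1G32060), GAPA (AT3G26650), GAPB (AT1G42970), SBPASE (AT3G55800) and CFBP1 (AT3G54050), 10 of the 32833 genes in the deposited expression tables. They carried 103 of the 188282 sites in the tissue table of N6-methyladenosine (m6A) and 58 of the 50458 sites in the table of mta and Col seedlings.

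The experiments mapped m6A at single bases with m6A-SAC-seq, in which the enzyme MjDim1 labels m6A and reverse transcription then reads the labelled base as a mutation. The mutant seedlings were mta plants (ABI3::MTA/mta) in the Col-0 ecotype, harvested on day 8 on MS plates. They carry a mutation in the m6A methyltransferase gene MTA and an MTA transgene under the promoter of ABI3, a gene active in embryos, so they are not free of MTA. Their controls were Col seedlings, whose harvest day the sources used here do not give. The other samples were 9 tissues of Col-0 plants: dry seed, silique, flower, root and shoot of day 14, seedling of day 7, stem, cauline leaf and rosette leaf of day 30. Silique, flower, stem and cauline leaf were harvested after flowering, on days that are not given. Every tissue and genotype had 2 biological replicates, each with an MjDim1-treated and an untreated input library of polyadenylated RNA, which made 36 libraries for the tissues and 8 for mta and Col.

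In the Calvin cycle of the chloroplast, Rubisco joins CO2 to ribulose bisphosphate. Its large subunit is encoded in the chloroplast by rbcL, and its small subunit by the nuclear RBCS family. RCA, Rubisco activase, frees Rubisco of sugar phosphates that block its active site. GAPA and GAPB are the subunits of the chloroplast glyceraldehyde phosphate dehydrogenase, which carries out the reduction step. SBPASE and CFBP1, the sedoheptulose and fructose bisphosphatases, and PRK, phosphoribulokinase, serve the regeneration of the acceptor. In land plants this set is known for high transcript levels in lit green tissue and for activation of several of its enzymes by light through thioredoxin.

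The genes lie on 4 of the nuclear chromosomes in TAIR10. RBCS1A is at chr1:25048158-25049667 on the minus strand, and RBCS3B, RBCS2B and RBCS1B follow each other on the minus strand of chromosome 5, at chr5:15376988-15378642, chr5:15380907-15382071 and chr5:15383167-15385320. RCA is at chr2:16570746-16573692 on the minus strand. On the plus strand are PRK at chr1:11532199-11534639, GAPB at chr1:16127353-16129895, GAPA at chr3:9794862-9797045, CFBP1 at chr3:20016837-20018822 and SBPASE at chr3:20709294-20711640. The windows below hold 29 bases around sites that the results turn on, read from the RefSeq sequence of TAIR10.1, in which the deposited motif matched at 187374 of 187374 nuclear sites of the tissue table. Each has the 5 bases of the motif in capitals, with the methylated A in the middle. They are sites that passed the calling in the most tissues or that had a lower fraction in mta.

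RBCS1A TAAGT, CDS, chr1:25049153-25049181, minus strand: tttcaacggactTAAGTcctccgctgcct
RBCS1B AAACT, 3′ UTR, chr5:15384243-15384271, minus strand: gccaaagtgaaaAAACTgaaggtttgttt
RBCS2B CAAGC, CDS, chr5:15381914-15381942, minus strand: acctccccggctCAAGCcaccatggtcgc
RBCS3B AGACA, 3′ UTR, chr5:15377295-15377323, minus strand: tccgatgagataAGACAacatacaaaaaa
RCA AGATG, CDS, chr2:16571822-16571850, minus strand: ctgtcaacaaccAGATGgttaacgcaaca
RCA AGACG, 5′ UTR, chr2:16573485-16573513, minus strand: gttaagccttgaAGACGaagagataacga
PRK GGACG, 3′ UTR, chr1:11534509-11534537, plus strand: tcatggcgaaaaGGACGgtcttgcttgtt
GAPA AGACT, 3′ UTR, chr3:9796916-9796944, plus strand: aaatatcggtgaAGACTgtataattgtag
GAPB AGACT, 3′ UTR, chr1:16129706-16129734, plus strand: aactatatgttaAGACTgagagaattgta
SBPASE AAACC, 3′ UTR, chr3:20711451-20711479, plus strand: ttatttttccatAAACCggataatctact
CFBP1 AAACA, 3′ UTR, chr3:20018526-20018554, plus strand: gagtcatgtactAAACAtaagccatttaa
CFBP1 TGACT, 3′ UTR, chr3:20018564-20018592, plus strand: taagccagtttcTGACTacatggtatatg
PRK TCATG, CDS, chr1:11533041-11533069, plus strand: atgactttgatcTCATGtatgagcaagtc

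The RBCS2B window around CAAGC is also present, base for base, in RBCS1B, as is a window around a CGACA of both genes. Reads at these sites cannot be assigned to RBCS1B or RBCS2B by the window itself. The coding sequences of RBCS1B and RBCS2B are identical at 531 of 546 bases (97.3%). Of the stretches of 50 bases in their mRNAs, 1.4% in RBCS1A, 13.9% in RBCS1B, 21.4% in RBCS2B and 14.6% in RBCS3B were found in another RBCS gene, so the split between the tandem genes depends on how such reads were counted, which the sources used here do not state.

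Input libraries of the tissues held 3355823 to 6903234 reads (median 4829426) and treated ones 10382637 to 14693950. Levels are given as normalised RPKM, reads scaled to the deposited gene length and to the library size after TMM scaling, and the tissues were compared with edgeR's quasi-likelihood test on the counts of the input libraries. A gene was called at a Benjamini-Hochberg adjusted p below 0.05 over the 21805 genes tested, and all 10 genes passed the filter on low counts. Markers fitted the tissue labels, with summed levels of the 3 seed storage genes between 83449 and 89496 in seed. Silique also held these seed markers, at 19535 to 20379, and flower markers at 48.3 to 54.1, against 200.4 to 203.8 in flower. The summed level of 3 green tissue markers was 92.6 to 114 in root and 4.78 to 5.69 in seed, against 6449 to 41204 in the other 7 tissues.

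All 10 genes had their highest level in rosette leaf and the next highest in seedling. For 9 of the 10 the lowest level was in seed, and for CFBP1 it was in root. Each differed over the 9 tissues by the F test of edgeR, as did 99.3% of all genes tested. Of the 36 pairs of tissues, between 33 (RBCS3B) and 36 (RBCS1B) were called for each gene. In bulk RNA of this kind, fewer cells of a type and less RNA per cell cannot be told apart.

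**Figure D1:**
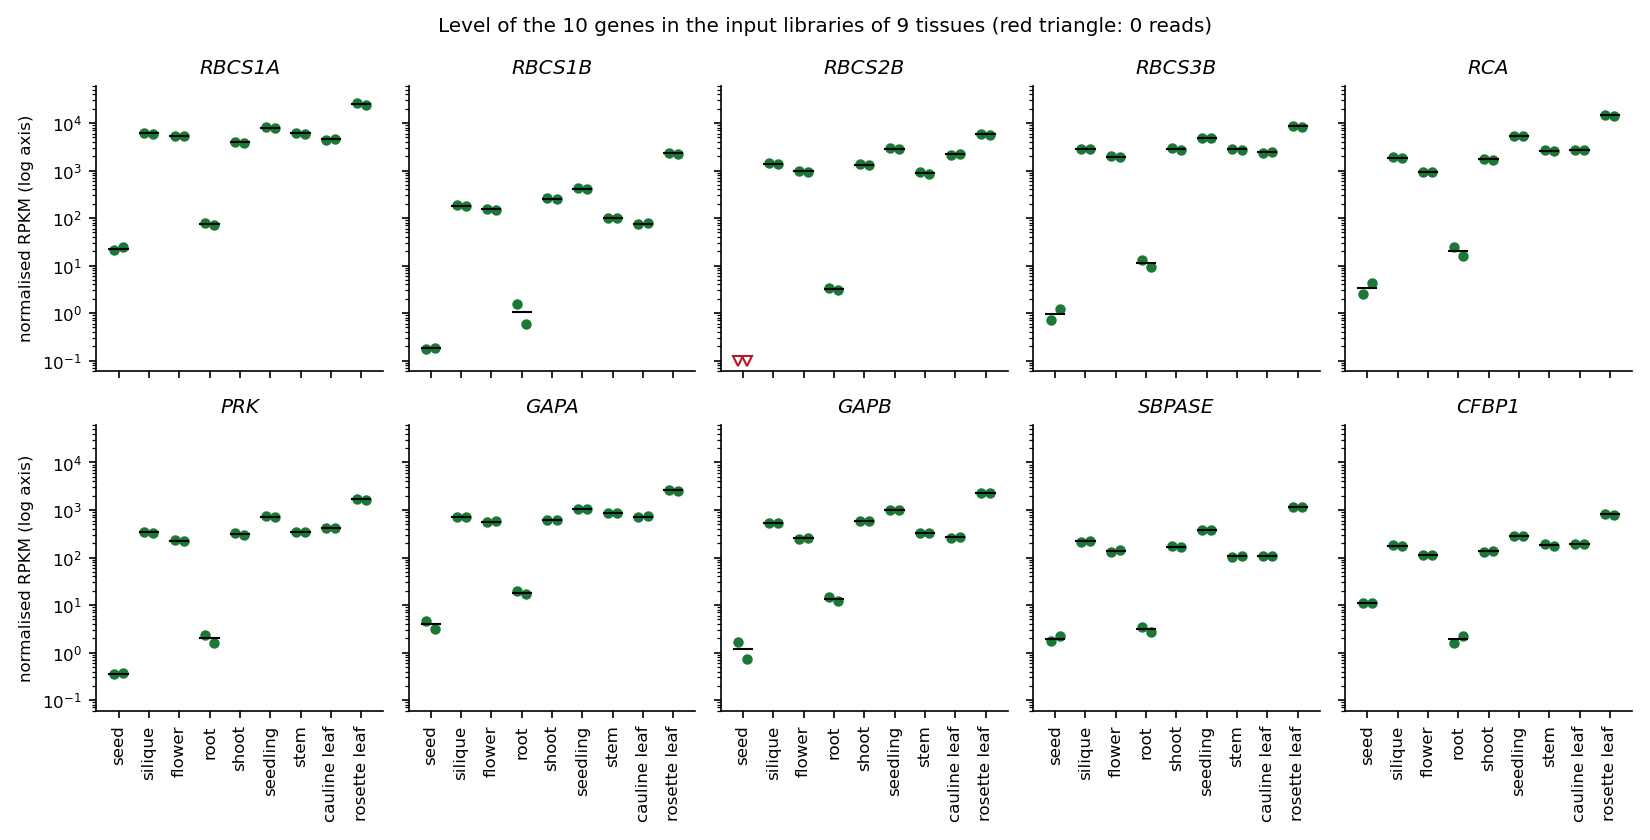
Normalised RPKM (log axis) of each gene in the input libraries of 9 tissues, 1 point per library and a line at the mean of the 2 replicates. Every panel peaks in rosette leaf and drops by more than a decade in root and seed, and the triangles mark the seed libraries with 0 reads of RBCS2B.

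The small subunit genes were led by RBCS1A. RBCS1A had 21.1 and 24.4 normalised RPKM in seed, 6082 and 5942 in silique, 5322 and 5339.7 in flower, 80.1 and 70.9 in root, 4053 and 3877 in shoot, 8091 and 7841 in seedling, 6267 and 5826 in stem, 4352 and 4716 in cauline leaf and 26546 and 24151 in rosette leaf. This was the highest level of the 10 genes in all 18 input libraries. RBCS3B had 0.722 and 1.23 normalised RPKM in seed, 2844 and 2793 in silique, 1999 and 1905 in flower, 13.3 and 9.36 in root, 2956 and 2699.6 in shoot, 4892 and 4729 in seedling, 2866 and 2709 in stem, 2379 and 2491 in cauline leaf and 8742 and 8252 in rosette leaf. RBCS2B stood at 0 and 0 normalised RPKM in seed, 1407 and 1372 in silique, 983 and 939 in flower, 3.37 and 3.10 in root, 1348 and 1276 in shoot, 2950.1 and 2772 in seedling, 925 and 852 in stem, 2146 and 2244 in cauline leaf and 5919 and 5653 in rosette leaf. RBCS2B had no read in either seed library, and its root level was also below that of RBCS3B and RBCS1A. RBCS1B reached 0.179 and 0.183 normalised RPKM in seed, 187 and 179 in silique, 154 and 149.7 in flower, 1.52 and 0.595 in root, 262 and 251 in shoot, 424 and 411 in seedling, 98.8 and 98.8 in stem, 73.7 and 78.1 in cauline leaf and 2358 and 2237 in rosette leaf. RBCS1B did not exceed 424 normalised RPKM outside rosette leaf. In the order of RBCS1A levels, stem and silique did not differ past the threshold (edgeR adjusted p = 0.925), and the same held for RBCS2B in silique and shoot (0.165) and in flower and stem (0.0603), and for RBCS3B in shoot and silique (0.957) and in silique and stem (0.826). All neighbours in the order of RBCS1B were called.

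Rubisco activase followed the same outline at levels near those of the major small subunit genes. RCA had 2.58 and 4.30 normalised RPKM in seed, 1905 and 1836 in silique, 952 and 949 in flower, 24.5 and 16.2 in root, 1755 and 1683 in shoot, 5398 and 5321 in seedling, 2658 and 2567 in stem, 2651 and 2738 in cauline leaf and 15049.9 and 13951 in rosette leaf. Stem and cauline leaf, neighbours in the order of its levels, overlapped and were not called (edgeR adjusted p = 0.563).

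The reduction step is carried by GAPA and GAPB. GAPA stood at 4.65 and 3.17 normalised RPKM in seed, 714 and 704 in silique, 563 and 573 in flower, 19.4 and 17.1 in root, 616 and 625 in shoot, 1045 and 1053 in seedling, 845 and 844 in stem, 715 and 738 in cauline leaf and 2625 and 2536 in rosette leaf. GAPB had 1.65 and 0.749 normalised RPKM in seed, 538 and 541 in silique, 249 and 257 in flower, 14.6 and 12.3 in root, 586 and 586 in shoot, 1010.2 and 1014 in seedling, 329 and 328 in stem, 262 and 273 in cauline leaf and 2256 and 2246 in rosette leaf. GAPA was above GAPB in all 18 input libraries, and the genes were closest in shoot and seedling. Neighbours that were not called were cauline leaf and silique for GAPA (edgeR adjusted p = 0.583) and cauline leaf and flower for GAPB (0.241).

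Of the regeneration genes, PRK, SBPASE and CFBP1 were each below GAPA in the 7 tissues other than root and seed. PRK had 0.359 and 0.367 normalised RPKM in seed, 349 and 332 in silique, 231 and 225 in flower, 2.39 and 1.62 in root, 323 and 293 in shoot, 734 and 707 in seedling, 350.4 and 342 in stem, 421 and 428 in cauline leaf and 1703 and 1626 in rosette leaf. SBPASE reached 1.75 and 2.19 normalised RPKM in seed, 216 and 220.4 in silique, 128 and 144 in flower, 3.53 and 2.67 in root, 176 and 165 in shoot, 384 and 377 in seedling, 105 and 108 in stem, 110.1 and 109 in cauline leaf and 1164 and 1149 in rosette leaf. CFBP1 stood at 10.9 and 10.9 normalised RPKM in seed, 181 and 172 in silique, 116 and 115 in flower, 1.58 and 2.24 in root, 132 and 137 in shoot, 284 and 283 in seedling, 189.8 and 174 in stem, 191 and 195 in cauline leaf and 829 and 783 in rosette leaf. CFBP1 stands apart at the low end, with both seed libraries at 10.9 normalised RPKM above the root libraries at 1.58 and 2.24. Neighbours that were not called were stem and silique for PRK (edgeR adjusted p = 0.741), stem and cauline leaf (0.672) and root and seed (0.0723) for SBPASE, and stem and cauline leaf (0.264) and stem and silique (0.547) for CFBP1. In seed, PRK had 2 and 2 reads and its neighbour AT1G32070, which overlaps it on the opposite strand, had more reads than PRK in 4 of the 18 input libraries. AT3G26640, which overlaps GAPA, had more reads than GAPA in 2 of the 18. The sources used here do not state whether the counting used strand, so low values of PRK and GAPA are uncertain.

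In root against shoot, the comparison of the organs of day 14, all 10 genes were lower in root, where 33.5% of all genes tested were called lower. GAPA averaged 18.3 ± 1.63 normalised RPKM in root and 620.3 ± 5.99 in shoot (SD, n = 2 each), a log2 difference of -5.08 ± 0.08 (SE) or 33.8-fold lower. RBCS2B was at the other end, 400.8-fold lower in root, with 23 and 18 reads in the root libraries against 7375 and 7201 in the shoot libraries. RBCS1B, with 21 and 7 reads in root, was 231.8-fold lower, and a ratio of summed reads with library sizes gave 234.5-fold with an exact 95% interval of 162.1 to 353.2. Such intervals cover counting error only.

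Dry seed was set against silique, the fruit that holds the seeds. All 10 genes were lower in seed, as were 48.8% of all genes tested, and the median log2 difference of all genes was -0.77. RBCS2B had 0 and 0 reads in seed against 7752 and 8187 in silique, and at a floor of 3 reads over the 2 seed libraries it was at least 2520-fold lower. RBCS1B had 1 and 1 reads in seed against 2090 and 2161 in silique, a ratio of 1008.3 with an exact 95% interval of 278.9 to 8328. For RBCS1A, with 79 and 89 reads in seed against 45442 and 48104 in silique, the ratio was 264.1 (227 to 309.2). CFBP1 had the smallest difference of the 10, with 53 and 52 reads in seed against 1758 and 1815 in silique, 16.1-fold lower (13.29 to 19.79). With library size alone as scaling, the split over all genes was 3879 higher and 13761 lower in place of 6460 and 10639, and all 10 genes stayed lower.

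Cauline leaf was set against rosette leaf to compare leaves of the flowering stem and of the rosette. All 10 genes were lower in cauline leaf, where 28.8% of all genes tested were called lower. RBCS1B averaged 75.9 ± 3.06 normalised RPKM in cauline leaf and 2297 ± 85.5 in rosette leaf (SD, n = 2 each), 30.4-fold lower (log2 difference -4.93 ± 0.06 SE). RBCS2B, its neighbour in the tandem array, was 2.64-fold lower (-1.40 ± 0.05, edgeR adjusted p = 2.67e-151). SBPASE was 10.5-fold and GAPB 8.44-fold lower, whereas PRK, GAPA, RBCS3B and CFBP1 were between 3.49-fold and 4.19-fold lower. RBCS1A was 5.59-fold and RCA 5.38-fold lower. Library size alone turned the split over all genes to 8562 higher and 4621 lower in place of 6252 and 6277, and all 10 genes stayed lower, with RBCS2B at -1.01.

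Stem against cauline leaf gave a mixed picture. In stem 5 genes were higher, where 23.6% of all genes tested were called higher: RBCS1A (log2 difference 0.42 ± 0.06 SE), RBCS1B (0.39 ± 0.07), GAPB (0.30 ± 0.06), GAPA (0.22 ± 0.05) and RBCS3B (0.20 ± 0.05). RBCS2B and PRK were lower, as were 22.3% of all genes. RBCS2B stood at 925 and 852 normalised RPKM in stem against 2146 and 2244 in cauline leaf, 2.47-fold lower, so that this gene moved against its 3 paralogs. RCA, SBPASE and CFBP1 had log2 differences of -0.04, -0.04 and -0.09 and were not called (edgeR adjusted p = 0.563, 0.672 and 0.264). In the treated libraries, 1 of these 7 calls remained, that of RBCS2B, where 6315 of all 23549 genes tested were called higher and 6103 lower.

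Shoot against seedling compared day 14 shoots with whole seedlings of day 7, which include roots. All 10 genes were lower in shoot, as were 25.0% of all genes tested. The differences ran from 1.63-fold for RBCS1B (log2 difference -0.70 ± 0.05 SE) to 3.12-fold for RCA (-1.64 ± 0.06). RCA had 1755 and 1683 normalised RPKM in shoot against 5398 and 5321 in seedling. With library size alone the split over all genes was 6804 higher and 3966 lower in place of 4499 and 5461, and the 10 genes stayed lower. In the treated libraries 9 of the 10 were called lower, and RBCS3B was not (log2 difference -0.85, edgeR adjusted p = 0.114). Of all 23549 genes tested there, 6505 were called lower.

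In silique against flower, all 10 genes were higher in silique, where 28.8% of all genes tested were called higher. GAPB had 538 and 541 normalised RPKM in silique against 249 and 257 in flower, 2.13-fold higher (log2 difference 1.09 ± 0.06 SE), and RCA was 1.97-fold higher. RBCS1A was at the low end, 1.13-fold higher (0.17 ± 0.06, edgeR adjusted p = 0.00362). With library size alone as scaling RBCS1A and RBCS1B were not called (log2 differences 0.02 and 0.11, adjusted p = 0.759 and 0.0772), and the split over all genes was 5142 higher and 7797 lower in place of 6288 and 6265. In the treated libraries 5 of the 10 genes were called, where 7638 of all 23549 genes tested were called higher and 8061 lower.

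The 4 small subunit genes did not keep one mixture over the tissues. RBCS1A held 95.2% and 93.7% of the RBCS reads in seed and 80.4% and 83.9% in root, against 46.4% and 47.3% in shoot and 60.1% and 59.1% in rosette leaf. The seed shares rest on 83 and 95 reads, and those of root on 922 and 665. In the treated seed libraries the share was 53.5% of 1689 reads and 78.5% of 362 reads, so the seed share depends on the library. The RBCS1A share differed over the tissues (F = 477.8, permutation test with 100000 resamples, p = 1e-05, the smallest these can give). RBCS1B took 1.27% and 1.26% in cauline leaf against 7.98% and 8.18% in rosette leaf. RBCS2B took 6.63% and 6.53% in stem against 18.2% and 17.9% in cauline leaf, and RBCS3B had 37.7% and 36.6% in shoot against 33.3% and 33.4% in seedling. Together the 10 genes held 0.00411% and 0.00452% of all reads in seed and 0.0309% and 0.0256% in root, against 4.27% and 4.19% in seedling and 7.20% and 6.96% in rosette leaf.

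**Figure D2:**
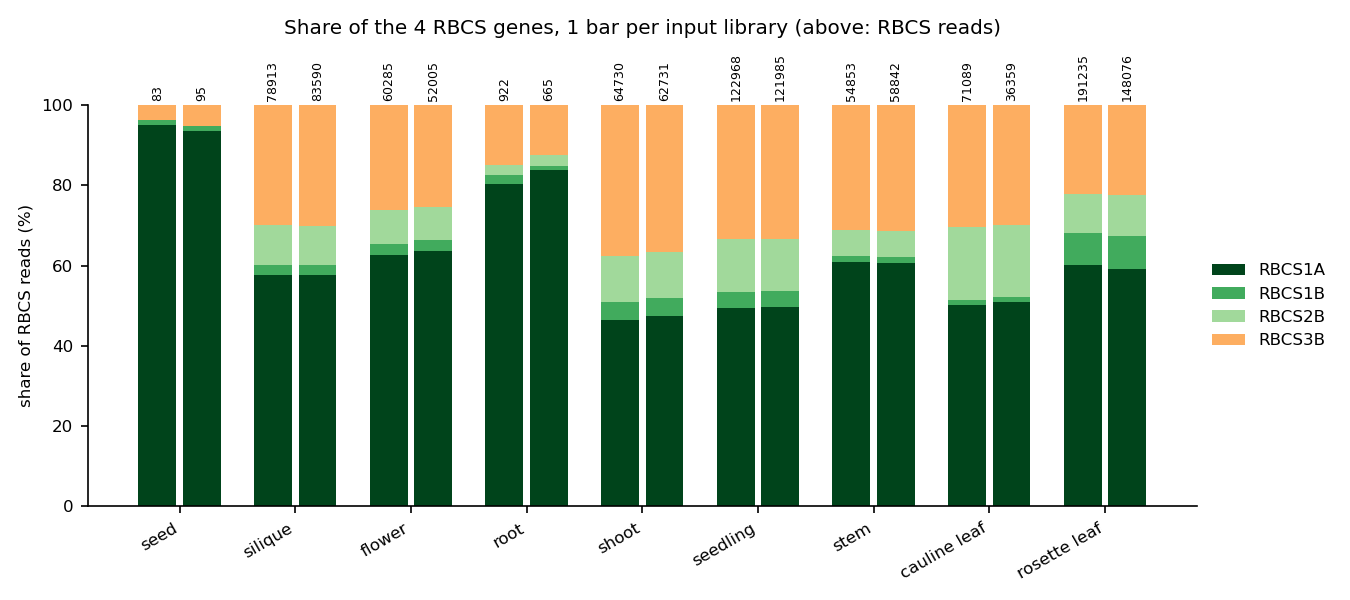
Share of the 4 RBCS genes in the RBCS reads (%), 1 stacked bar per input library, 2 per tissue, with the number of RBCS reads above each bar. RBCS1A fills most of the seed and root bars, RBCS1B is widest in rosette leaf and RBCS2B in cauline leaf.

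Other genes around the cycle were counted in lists. Of all genes tested, 37.5% were called higher and 33.5% lower in root than in shoot. The shares were 28.7% and 28.8% in cauline against rosette leaf, and 23.6% and 22.3% in stem against cauline leaf. They were 28.8% and 28.7% in silique against flower, 29.6% and 48.8% in seed against silique, and 20.6% and 25.0% in shoot against seedling. Some counts of the lists lay near these shares. Of 12 other plastid Calvin cycle enzymes, 10 were lower and 2 higher in root than in shoot, with the transketolase gene TKL2 at a log2 difference of 2.48 ± 0.09 (SE) and GAPA2 at -6.07 ± 0.09. In cauline leaf, 11 of these 12 were lower than in rosette leaf, down to -4.41 ± 0.06 for the aldolase gene FBA1. In stem, 5 were higher and 5 lower than in cauline leaf, and in silique 10 were higher and 1 lower than in flower. In seed, 10 of 12 were lower than in silique while TKL2 was higher (3.31 ± 0.06).

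Of 11 genes for CP12, the small protein that binds GAPDH and PRK, and for Rubisco assembly, 10 were lower in root than in shoot and 7 lower and 4 higher in cauline than in rosette leaf. Their range in the leaves went from -5.01 ± 0.14 for the chaperonin subunit gene CPN60B2 to 3.31 ± 0.16 for the assembly chaperone gene RBCX1. In silique 3 were higher and 6 lower than in flower, where the 10 genes of the set were all higher. All 12 photorespiration genes were lower in root than in shoot and in shoot than in seedling, and 11 of 12 in cauline than in rosette leaf. Of 8 cytosolic counterparts, which serve glycolysis and sucrose synthesis, 5 were higher and 3 lower in root than in shoot, with GAPC1 at 2.24 ± 0.06. The median log2 difference in root against shoot was -6.27 for the 10 genes, -2.85 for the other plastid enzymes, -3.42 for CP12 and assembly, -4.76 for photorespiration, 1.19 for the cytosolic list and 0 for all genes tested.

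The large subunit gene rbcL was read at low levels in this polyadenylated RNA, with tissue means from 1.90 normalised RPKM in root to 22.9 in rosette leaf. It was lower in root than in shoot (log2 difference -3.28 ± 0.20 SE) and in cauline than in rosette leaf (-0.61 ± 0.15). In shoot it was higher than in seedling (0.60 ± 0.14), and in silique lower than in flower (-0.45 ± 0.19, edgeR adjusted p = 0.0309), where the 10 nuclear genes went the opposite way. Chloroplast transcripts mostly lack long poly(A) tails, so these values do not measure the total rbcL transcript.

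Over the 9 tissue means of log2 CPM, the Pearson correlations between pairs of the 10 genes lay between 0.873 for GAPB with CFBP1 and 0.997 for PRK with GAPA. The 5 other genes with the profile most like the mean of the set were CRB (AT1G09340, r = 0.9975), AT5G27290 (0.99698), AT1G74730 (0.99686), NDF2 (AT1G64770, named PnsB2 in RefSeq, 0.9966) and PORC (AT1G03630, 0.99659). CRB binds chloroplast RNA, PnsB2 belongs to the chloroplast NDH complex and PORC reduces protochlorophyllide. The correlations are over 9 points whose range is set by the low root and seed values, and CFBP1 itself had the lowest correlation with the mean profile of the 10 genes (0.937).

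For m6A, a site of a tissue was counted where at least 20 reads covered it and the authors had marked it as called. The m6A fraction is the share of RNA copies methylated at the site, calibrated by the authors for each motif on spike-in probes, with the replicates pooled to 1 value. It has no spread, so fractions were compared without a test. Of the 103 listed sites, 94 were m6A sites in at least 1 tissue, 58 in coding sequence (CDS) and 30 in 3′ UTRs. Their shares in CDS and 3′ UTR, 61.7% and 31.9%, were close to those of all such sites, 59.6% and 34.5%. The RAC motif (R is A or G) made up 51.1% of them and 50.4% of all. In a lone tissue were 22.3% of these sites against 53.2% of all, at member depths with tissue medians from 58 reads in seed to 4955 in rosette leaf.

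The tissues differed in how many sites the 10 genes showed. Silique had 77, cauline leaf 67, seedling 63, shoot 62, flower 53, stem 49, rosette leaf 33, root 15 and seed 5. Of the sites of the 10 genes with at least 20 reads, 80.2% were called in silique against 46.1% of all sites, 69.8% in cauline leaf against 41.9%, 64.9% in seedling against 36.6% and 64.6% in shoot against 40.5%. The shares were 54.6% in flower against 36.6% and 51.6% in stem against 25.8%. In rosette leaf the share was 33.0% against 20.6% of all sites, whereas root had 22.4% against 29.0% and seed 7.35% against 33.7%. The 10 genes stood above all sites in the 7 tissues in which they were covered by many reads and below them in root and seed. Without the depth minimum, all 103 listed sites of these genes carried the mark in some tissue, so the shares depend on where such sites could be found. In these 7 tissues the called sites had median depths of 1155 to 4955 reads in the 10 genes, against 79 to 91 for all sites. In root these medians were 105 against 107 and in seed 58 against 124. The part of depth in the shares was not tested. Rosette leaf, with the deepest coverage of these genes, had fewer sites than 6 other tissues. SBPASE carried 19 listed sites, RCA and GAPB 17 each and PRK 15, whereas RBCS1A and RBCS1B carried 3 each and RBCS2B 4.

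The RBCS1A and GAPA genes held the 3 sites that were m6A sites in all 9 tissues, 3.19% of the 94, against 3.72% of all sites. The CDS site of RBCS1A in TAAGT had a fraction of 1.00, the highest value the calibration gives, in 7 tissues, against 0.841 in root at 1153 reads and 0.434 in seed at 507 reads. The site of RBCS1A in AGACA of the 3′ UTR was at 0.395 in cauline leaf, its highest, and 0.166 in rosette leaf, its lowest. The site of GAPA in AGACT of the 3′ UTR was at 0.789 in root at 82 reads and 0.236 in rosette leaf at 6508 reads, its highest and lowest values.

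The sites of the 3′ UTRs were methylated in more tissues than those of the CDS: 17 of 33 listed 3′ UTR sites and 14 of 59 listed CDS sites were m6A sites in at least 7 tissues (51.5% and 23.7%). Of all listed sites, 18.02% in 3′ UTRs and 3.94% in the CDS were. The SBPASE site in AAACC had 0.808 in seedling, 1.00 in cauline leaf and 0.545 in rosette leaf. The PRK site in GGACG had 0.709 in shoot, 0.483 in seedling, 0.665 in cauline leaf and 0.279 in rosette leaf. The median of 3′ UTR m6A sites in the 10 genes was 0.255 in rosette leaf against 0.574 for all genes, 0.346 against 0.572 in seedling and 0.456 against 0.529 in root. The rosette leaf fractions come from treated replicates that stood further apart than those of any other tissue, with a chi-square per degree of freedom of 5.76 between their counts over genes against 1.16 to 2.58 elsewhere, and with reads in 22574 and 20861 genes. The part of this gap in the rosette leaf values was not tested.

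An RCA site differed in rosette leaf from all other tissues. In the CDS motif TCATC it was listed at 1.00 in rosette leaf at 62475 reads, against 0.118 to 0.216 in the 6 other tissues outside root and seed and 0.000 in those, at 263 and 221 reads. The site in TCATA of the same CDS, in the other table, was listed at 1.00 in mta at 21184 reads against 0.0971 in Col at 16346 reads. Both motifs start with TCAT, and neither value has replicates.

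Tissues were set against each other at sites called in both of them, a rule chosen after seeing the data. Entry through a call in either tissue would favour the tissue with the higher fraction: of the 71 sites called in cauline or rosette leaf, 39 were called in cauline leaf alone and 4 in rosette leaf alone. At the 28 sites of the 10 genes called in both leaves, the fraction was higher in cauline leaf than in rosette leaf at 27 (96.4%), against 59.6% of all such sites. All 14 of the 3′ UTR sites among them were higher, against 53.6% of all 3′ UTR sites, with medians of 0.531 in cauline leaf and 0.255 in rosette leaf. The sites that were not higher include equal ones, 2137 of 16067 over all sites. Lower in cauline leaf were 27.1% of all sites and 30.3% of all 3′ UTR sites.

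In silique, 27 of 28 CDS sites called in both were higher than in flower, against 66.4% of all CDS sites (27.1% lower). In 3′ UTRs 4 of 19 were higher and 15 lower, against 40.4% and 42.6%. In shoot, 18 of 21 sites in 3′ UTRs were higher than in seedling and 3 lower, against 39.8% and 43.3%. In the CDS 12 of 33 were higher and 20 lower, against 39.0% and 54.9%. Stem had lower fractions than cauline leaf at 40 of 47 sites and higher ones at 6, against 56.2% and 30.4% of all sites. Root and shoot shared 4 called CDS sites, of which 3 were lower in root and 1 higher, against 85.6% and 10.4%. Of 10 shared in 3′ UTRs, 8 were higher in root and 2 lower, against 27.3% and 57.4%. Seed and silique shared 4 called sites in all, too few for a comparison. Sites of 1 gene share its RNA and reads, so they are not independent of each other.

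The seedling experiment asked what happens when MTA is low. The MTA transcript itself was at 3.74 and 2.98 TPM (transcript abundance scaled to the same total in every library) in mta against 5.94 and 5.99 TPM in Col, a log2 difference of -0.68 (limma adjusted p = 0.0119). The reads cannot tell the transgene from the endogenous gene. Values were compared with limma on log2(TPM + 1), and all 10 genes were among the 18420 whose mean reached 1 TPM.

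All 10 genes were higher in mta than in Col, in both mta samples above both Col samples. Of all genes tested, 6.31% were called higher and 20.6% lower, and 16.7% had both mta samples above both Col samples. RBCS2B had 10086 and 10128 TPM in mta against 5564 and 5533 TPM in Col, 1.82-fold higher (log2 difference 0.87 ± 0.01 SE, limma adjusted p = 3.91e-08). SBPASE had 744 and 746 TPM in mta against 537 and 536 TPM in Col, 1.39-fold higher. These are the genes with the widest gap between the genotypes. Replicates of a genotype differed by little more than counting error (chi-square per degree of freedom 1.06 in mta and 1.09 in Col). The SEs and p-values here need not cover the spread between plants.

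RCA had 10196 and 10068 TPM in mta against 7681 and 7809 TPM in Col, 1.31-fold higher. RBCS1A, the most abundant transcript in both genotypes, had 38821 and 39001 TPM in mta against 30064 and 30115 TPM in Col, 1.29-fold higher. The other genes lay between 1.14-fold and 1.23-fold: PRK at a log2 difference of 0.30 ± 0.02, GAPB at 0.27 ± 0.01, RBCS1B at 0.26 ± 0.01, CFBP1 at 0.20 ± 0.02, GAPA at 0.19 ± 0.01 and RBCS3B at 0.19 ± 0.01. Together the 10 genes held 9.26% and 9.29% of all TPM in mta against 7.25% and 7.23% in Col. RBCS2B held 13.6% of the RBCS TPM in both mta samples against 9.63% and 9.64% in Col, while RBCS1A held 52.5% and 52.5% against 52.0% and 52.5%.

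**Figure D3:**
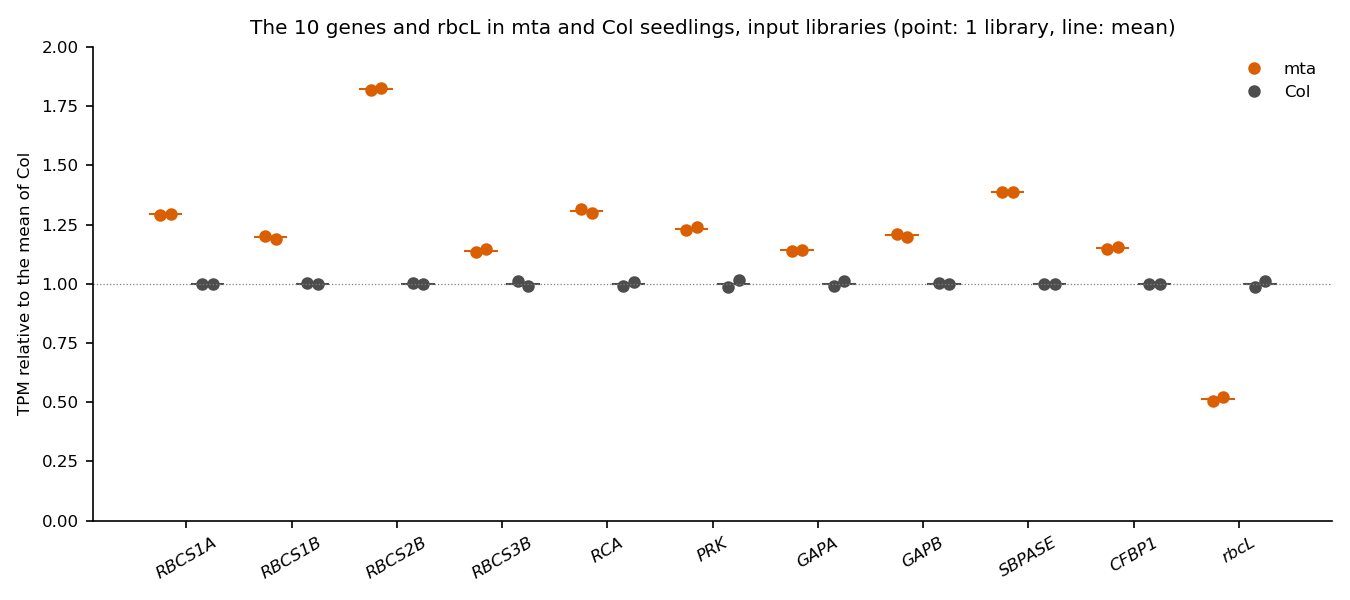
TPM of each gene in mta and Col seedlings relative to the mean of Col, input libraries, with 1 point per library and a line at the mean of 2. The mta points of the 10 nuclear genes lie above those of Col, from 1.14-fold (RBCS3B) to 1.82-fold (RBCS2B), and those of rbcL lie below.

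Reads of rbcL in this polyadenylated RNA went the other way, with 268.7 and 279.6 TPM in mta against 527 and 541 TPM in Col (log2 difference -0.96 ± 0.03, limma adjusted p = 4.82e-06). As in the tissues, these values do not measure the total rbcL transcript. Beside RBCS1A, rbcL stood far higher in Col than in the seedlings of the tissue series. The part of RNA capture in the rbcL difference between mta and Col was not tested. Of the other plastid Calvin cycle enzymes, 8 of 12 were higher and 2 lower, from 0.31 ± 0.01 for GAPA2 to -0.73 ± 0.08 for TKL2. Of the CP12 and assembly genes, 7 of 11 were higher and none was called lower, and 10 of 12 photorespiration genes were higher and none lower. Of the cytosolic counterparts 6 of 8 were lower, down to -0.66 ± 0.02 for FBA8. The median log2 difference was 0.29 for the 10 genes and -0.14 for all genes tested.

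Markers of other tissues moved with the genotype. Root markers summed to 17.9 to 22.1 TPM in mta and 41.6 to 41.9 TPM in Col, with both genes lower in mta, and seed markers to 17.6 to 18.1 TPM in mta and 31.3 to 33.4 TPM in Col, with 3 of 3 lower. Green tissue markers summed to 38896 to 38965 TPM in mta and 37834 to 38014 TPM in Col, where 1 of 3 had both mta samples above both Col samples. Their part in the result was not tested. With edgeR on reads recovered from the TPM, 2994 genes were higher and 2686 lower in place of 1162 and 3794, and the 10 genes were higher there too. In the treated libraries, a comparison chosen after seeing the data, the 10 genes were higher by 0.12 to 0.81. Of all 18216 genes tested there, 912 were called higher and 3144 lower.

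The m6A fractions in the same seedlings were compared first at all 58 sites, each of which had at least 20 reads in both genotypes. In the 10 genes 24 of 58 sites (41.4%) had a lower fraction in mta, against 48.8% of all sites at this depth, an entry rule chosen after seeing the data. The split followed the region of the transcript. In 3′ UTRs, 16 of 17 sites had a lower fraction in mta (94.1%), against 67.7% of all 3′ UTR sites, and the other, GAPB in TGACA, had 0.144 in mta against 0.0987 in Col at 118 and 75 reads. In the CDS, 7 of 38 sites had a lower fraction in mta (18.4%), against 38.2% of all CDS sites. Over all genes 17191 of 35196 sites at this depth were lower in mta and 16110 higher, and the rest were equal.

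A site was called MTA-dependent where its fraction was at least 0.1 in Col and in mta at most 2/3 of that. The mark of the authors was not required. Of the 58 sites 45 reached 0.1 in Col. Entry through Col alone favours a lower value in mta, so the counts are given beside those of all sites, which need not carry the same bias. In the 10 genes 12 of 45 sites (26.7%) were MTA-dependent, against 42.8% of all sites, but at a fraction of at least 0.2 in Col 11 of 23 (47.8%) were, against 48.3%. With a minimum of 10 reads the shares were 26.7% and 44.3%, and with 50 reads 25.0% and 38.8%. The part of read depth in the gaps between the 10 genes and all sites was not tested. In 3′ UTRs, 10 of 16 (62.5%) were MTA-dependent, against 48.8%, and in the CDS 1 of 28 (3.57%), against 37.7%. At most 1/2 of the Col fraction left 1 of 16 in 3′ UTRs (6.25%), against 30.7%, and none of 28 in the CDS, against 27.7%. At sites called in both genotypes, an entry chosen after seeing the data, 6 of 10 in 3′ UTRs (60.0%) were at most 2/3, against 31.9%. In the CDS 0 of 23 were, against 5.15%. The excess in 3′ UTRs held at 2/3 and turned to a deficit at 1/2. The median fraction of the 16 was 0.180 in mta and 0.242 in Col, with a median ratio of 0.625 against 0.679 for all 3′ UTR sites, and the median ratio of the 28 CDS sites was 1.07, against 0.881.

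Among the 12, CFBP1 carried the site in AAACA of its 3′ UTR at 0.0766 in mta against 0.233 in Col, and the site in TGACT at 0.324 in mta against 0.502 in Col. The AAACA site was not marked as called in either genotype. PRK had the CDS site in TCATG at 0.468 in mta against 0.884 in Col, at 2748 and 2247 reads, and the 3′ UTR site in GGACG at 0.184 in mta against 0.356 in Col. The CDS site starts with TCAT like the RCA sites whose listed fractions were near 1.00 in 1 condition and low in others, and it was not marked as called in mta, so the lone MTA-dependent CDS site carries the same doubt. These sites of PRK and CFBP1 have their windows among the sequences above.

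GAPA had a pair, AGACT at 0.192 in mta against 0.305 in Col and AAACT at 0.216 in mta against 0.347 in Col. GAPB also had a pair, GAACA at 0.126 in mta against 0.232 in Col and AGACT at 0.138 in mta against 0.239 in Col. SBPASE had AAACT at 0.125 in mta against 0.219 in Col and GGATA at 0.230 in mta against 0.380 in Col. RBCS1B had AAACT at 0.0929 in mta against 0.152 in Col, and the RCA site in AGACG of the 5′ UTR was listed at 0 in mta against 0.256 in Col, at 24 and 22 reads. The RBCS1B site was not marked as called in either genotype. GAPB in GAACA, SBPASE in AAACT and the RCA site were marked in Col alone.

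Not all sites moved with the genotype by much: RBCS1A in AGACA had 0.176 in mta against 0.182 in Col, and in TAAGT 1.00 in both, and the RBCS2B site in CAAGC had 0.305 in mta against 0.318 in Col. RCA, as abundant as RBCS2B in mta, had CDS sites with a higher fraction in mta, GAACC at 0.330 in mta against 0.246 in Col and AGACA at 0.266 in mta against 0.209 in Col, and the 3′ UTR site in GGATT at 0.0904 in mta against 0.132 in Col. The transcript level was higher in mta for all 10 genes. RBCS1A, RBCS2B and RBCS3B had no MTA-dependent site under this rule, with 2, 1 and 3 sites at 0.1 or more in Col. Whether m6A bears on the levels was not tested. At the 53 sites listed in both tables, Col seedlings and the seedlings of the tissue series differed by a median of 0.0362, and by up to 0.541 (GAPA in AAACT, 0.347 in Col against 0.888 in the tissue series), which gives the scale on which pooled fractions differ between the experiments. RBCS1B in AAACT had 0.481 in the tissue series against 0.152 in Col, and SBPASE in AAACT 0.507 against 0.219. At these AAACT sites of GAPA, RBCS1B and SBPASE that gap was wider than the gap between mta and Col. At most of the other MTA-dependent sites listed in both, the gap between mta and Col was the wider.

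The promoters were read for a pair of motifs known from RBCS promoters, the G-box CACGTG and the I-box GATAAG, on both strands in 250 bases before to 50 after the annotated start. In none of the 10 promoters did a match of the G-box overlap a match of the I-box. The G-box was present in 3 of the 10 genes, RBCS2B, PRK and CFBP1, and in 7.7% of 27444 promoters. The I-box was present in RBCS1B, RBCS2B, RCA, GAPB and CFBP1 and in 14.6% of promoters. RBCS2B and CFBP1 held both, as did 1.3% of promoters. The stretch searched depends on the annotated start: an I-box followed by the same bases lay at 0 in RBCS1B and at -94 in RBCS2B. A gene without a match, such as RBCS1A, may hold the motif outside that stretch. The windows show the G-box in capitals in the 3 genes that had it. A link between these motifs and the transcript levels was not tested.

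RBCS2B promoter, chr5:15382177-15382206, minus strand: ggagttttctgcCACGTGatcttatcctag
PRK promoter, chr1:11532014-11532043, plus strand: attagaatctccCACGTGtcaattcaaata
CFBP1 promoter, chr3:20016803-20016832, plus strand: taagagcaaagcCACGTGtcataacacaag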

How the data were processed

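The reads were processed by the authors in their m6A-SACseq pipeline with TAIR10 as the genome, and the aligner, the counter and their versions are left unstated in the sources used here. For the tissues, the authors deposited raw counts per gene and library, and for mta and Col seedlings TPM per gene. Site tables deposited by the authors give, with replicates pooled, a count of covering reads, an m6A fraction calibrated on spike-in probes and a mark of called sites. Samples were grouped by their titles. The 10 genes, the lists of other genes and the markers were chosen with earlier results of these data known, the 10 genes by their identity.

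Counts of the 18 input libraries were tested in 1 fit with edgeR 4.0.16 (TMM, filterByExpr, quasi-likelihood test, Benjamini-Hochberg adjustment) in R 4.3.3. Some adjusted p-values were too small to be stored and are not printed. TPM were tested with limma 3.58.1 on log2(TPM + 1) at a mean of at least 1 TPM, a scale that understates changes of low genes. For an alternative, whole reads were recovered from TPM and gene length. The input libraries of mta and Col then held 8911758 to 10783646 reads. Depth sets the precision: tissue input libraries held 3355823 to 6903234 reads, and p-values measure the spread between 2 samples a group. Between input replicates the chi-square per degree of freedom over genes was 1.06 in mta, 1.09 in Col and 1.09 to 1.64 in the tissues. Counting error alone gives values near 1, so small SEs and p-values need not cover the spread between plants. Intervals and floors, at 3 reads, cover counting error only.

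Named were the 10 genes in every comparison, the highest and lowest fold change of each list, the 5 genes with the most alike profile, and sites called in the most tissues or with the largest fall in mta. Gene models, promoters and windows came from the RefSeq annotation of TAIR10.1. The tests were tried on simulated data, where edgeR recovered 38 of 50 genes changed 2-fold in root against shoot with 8 false calls among 21805 genes, and limma 18 of 50 genes changed 1.5-fold in mta against Col with 21 false calls among 18377. The genes changed for limma were drawn below the levels of most of the 10 genes, so recovery at those levels was not tried. Alternatives were other scalings, no filter, DESeq2 1.42.0, the treated libraries, fewer samples, a replicate block and other site thresholds.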

Additional observations from a re-analysis of the deposited data

Results flagged for a closer look

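The treated libraries, which the comparisons of expression did not use, differed between the seed replicates. RBCS genes took 0.0163% of the reads (1689 reads) in treated seed replicate 1 and 0.00309% (362 reads) in treated seed replicate 2, against 0.00174% and 0.00208% in the seed input libraries. RBCS1A held 53.5% of these RBCS reads in treated replicate 1 and 78.5% in treated replicate 2. All 10 genes together took 0.0301% and 0.00638% of the reads there. The seed m6A fractions come from the pooled treated libraries, and at the RBCS1A site in TAAGT seed was listed at 0.434 at 507 reads.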

How the results depend on the processing

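The tests gave 892 values under alternatives, none of them reversed. With the treated libraries, 1 of the 10 genes was called in stem against cauline leaf in place of 7, and 5 in silique against flower in place of 10. Of all 23549 genes tested there, 6315 were higher and 6103 lower in stem, and 7638 higher and 8061 lower in silique. A fraction of at least 0.2 left 54 m6A sites of the 10 genes in place of 94. At most 1/2 of the Col fraction left 2 MTA-dependent sites in place of 12 (4.44% against 29.1% of all sites). A call in both genotypes, chosen after seeing the data, left 6 of 33 (18.2%), against 20.3% of all sites. For these results the cause was not tested. Single genes kept direction and call in 746 values and lost the call in 14, all with library size alone or the treated libraries, RBCS3B in shoot against seedling among them (-0.85, edgeR adjusted p = 0.114).

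Leaving out each library in turn changed no call of the 10 genes. Scaling by library size alone moved the median log2 difference of all genes by more than 0.1 in cauline leaf against rosette leaf (to 0.27), shoot against seedling (to 0.14), silique against flower (to -0.15) and seed against silique (to -1.62), and RLE factors moved that of root against shoot to 0.10. DESeq2 gave 2744 genes higher and 5241 lower in shoot against seedling.

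Same-numbered replicates did not deviate together: the 36 correlations of their deviations between tissues ran from -0.0493 to 0.0777, and mta and Col gave 0.073. The replicate block kept the number of genes called, 10 in mta against Col, 7 in stem against cauline leaf and 10 in each other comparison of tissues. Depth limits the seed and root values, where single genes rest on 0 to 89 and 7 to 741 reads, and the site fractions have no replicates.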
